A study of Mus musculus with 4 samples.

Results

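Genes of the oxygen-sensing pathway and targets of the hypoxia-inducible factors (HIF) outside glycolysis were examined in mouse 3D engineered muscle, a skeletal muscle tissue built in culture. The set holds 32 genes of the 31829 gene names on the array and was taken by gene name: 4 HIF subunits, 5 genes of oxygen sensing and HIF turnover, 5 of mitochondria and mitophagy, 6 of collagen modification and oxidation in the endoplasmic reticulum, 5 transcription and chromatin factors and 7 secreted, surface and stress genes. Of these, 30 gave a signal well above background on every array, and Hif3a (3 probes) and Mxi1 (1 probe) did so on none. The tissue either received acute EPS for 30 min or did not, and RNA was taken at 0 min or 5 h, which gave 4 groups: no EPS at 0 min, EPS at 0 min, no EPS at 5 h and EPS at 5 h. The labels write EPS out as electrical plus stimulation, read here as electrical pulse stimulation, and the tissue without EPS was the negative control. Each group was 1 single-colour array on 1 slide, so there were no replicates, no test between groups was run, and every value below describes these 4 arrays. The labels used here do not name the cells from which the muscle was built or an oxygen tension, while the series title concerns hypoxia.

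HIF is a pair of proteins, an oxygen-labile alpha subunit and a stable beta subunit. In oxygenated cells prolyl hydroxylases mark the alpha subunit, the von Hippel-Lindau protein has it destroyed, and an asparaginyl hydroxylase blocks its activity. When oxygen is short the alpha subunit persists, pairs with its partner and binds DNA at a short core motif near its targets. This control acts mainly on protein, which the arrays did not measure. Contracting skeletal muscle uses oxygen quickly, and HIF targets there serve blood vessel growth, mitochondrial turnover, acid handling and matrix formation.

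The HIF core motif was searched in RefSeq promoters (build GRCm38.p6, 250 bases before to 50 after each gene's start) as ACGTG and as GCGTG, on both strands; CACGTG counts as 2 overlapping matches. The stretches shown are the last 160 bases before the start of 8 members on which the results turn, read 5′ to 3′ on the gene's strand. Capitals mark the matches, so CACGT and CACGC are matches on the other strand.
Bnip3 (chr7:138909507-138909666, minus strand): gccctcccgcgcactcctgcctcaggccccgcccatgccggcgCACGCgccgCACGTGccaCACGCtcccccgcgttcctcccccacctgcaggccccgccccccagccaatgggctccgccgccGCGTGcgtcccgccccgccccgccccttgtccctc
Fam162a (chr16:36071562-36071721, minus strand): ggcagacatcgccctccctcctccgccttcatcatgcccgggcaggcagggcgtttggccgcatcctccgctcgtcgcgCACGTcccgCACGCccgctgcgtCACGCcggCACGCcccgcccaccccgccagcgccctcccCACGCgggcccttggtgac
Car9 (chr4:43506866-43507025, plus strand): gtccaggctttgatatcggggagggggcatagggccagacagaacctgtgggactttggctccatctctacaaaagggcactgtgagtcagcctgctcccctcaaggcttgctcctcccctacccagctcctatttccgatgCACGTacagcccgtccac
Egln1 (chr8:124949255-124949414, minus strand): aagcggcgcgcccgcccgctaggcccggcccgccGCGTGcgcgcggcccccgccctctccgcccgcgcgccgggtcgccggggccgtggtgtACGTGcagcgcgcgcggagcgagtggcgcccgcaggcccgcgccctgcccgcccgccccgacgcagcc
Ankrd37 (chr8:45999851-46000010, minus strand): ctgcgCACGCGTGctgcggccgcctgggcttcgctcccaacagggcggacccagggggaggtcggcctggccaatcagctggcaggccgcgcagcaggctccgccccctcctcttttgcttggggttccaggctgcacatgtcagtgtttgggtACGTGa
P4ha2 (chr11:54100764-54100923, plus strand): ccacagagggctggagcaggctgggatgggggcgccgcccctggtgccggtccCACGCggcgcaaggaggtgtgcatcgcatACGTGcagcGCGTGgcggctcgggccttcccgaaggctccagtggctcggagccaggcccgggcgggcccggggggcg
Pdk1 (chr2:71873064-71873223, plus strand): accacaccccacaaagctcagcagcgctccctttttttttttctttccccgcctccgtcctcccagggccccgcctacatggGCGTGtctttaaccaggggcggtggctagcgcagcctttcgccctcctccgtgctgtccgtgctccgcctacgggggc
Hif1a (chr12:73907707-73907866, plus strand): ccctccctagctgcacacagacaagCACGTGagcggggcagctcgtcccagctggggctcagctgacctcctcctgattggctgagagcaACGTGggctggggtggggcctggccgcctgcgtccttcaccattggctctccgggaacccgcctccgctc
Bnip3 and Fam162a held 5 matches each in these stretches, Ankrd37, P4ha2 and Hif1a 3 each, Egln1 2, and Car9 and Pdk1 1 each. The full search covered 32 promoters of 25 members and left out Bhlhe40, Epas1, Lox, Ndrg1, Plod2, Loxl2 and Bnip3l. At least 1 match lay in 25 of the 32 promoters (78.1%), against 43.8% of all 32851 promoters of the same length. The members' promoters were richer in G and C (64.2% against 53.8%), and among the 7402 promoters in the middle of the members' range of GC content (59.3 to 70.3%) the share with a match was 67.5%. ACGTG lay in 56.2% of the members' promoters, in 19.6% of all and in 27.3% of those of like GC content. GCGTG gave 59.4%, 32.4% and 56.3% in the same order, so it was the ACGTG form whose share in the members lay farther above promoters of like GC content. The members' shares cover all 32 promoters, also those outside that GC range, and the set was chosen to hold HIF targets. The promoters of Hif1an, an enzyme that hydroxylates HIF, and of Vhl held no match in this window. Matches are letters in a window and were not tested as binding sites.

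**Figure D1:**
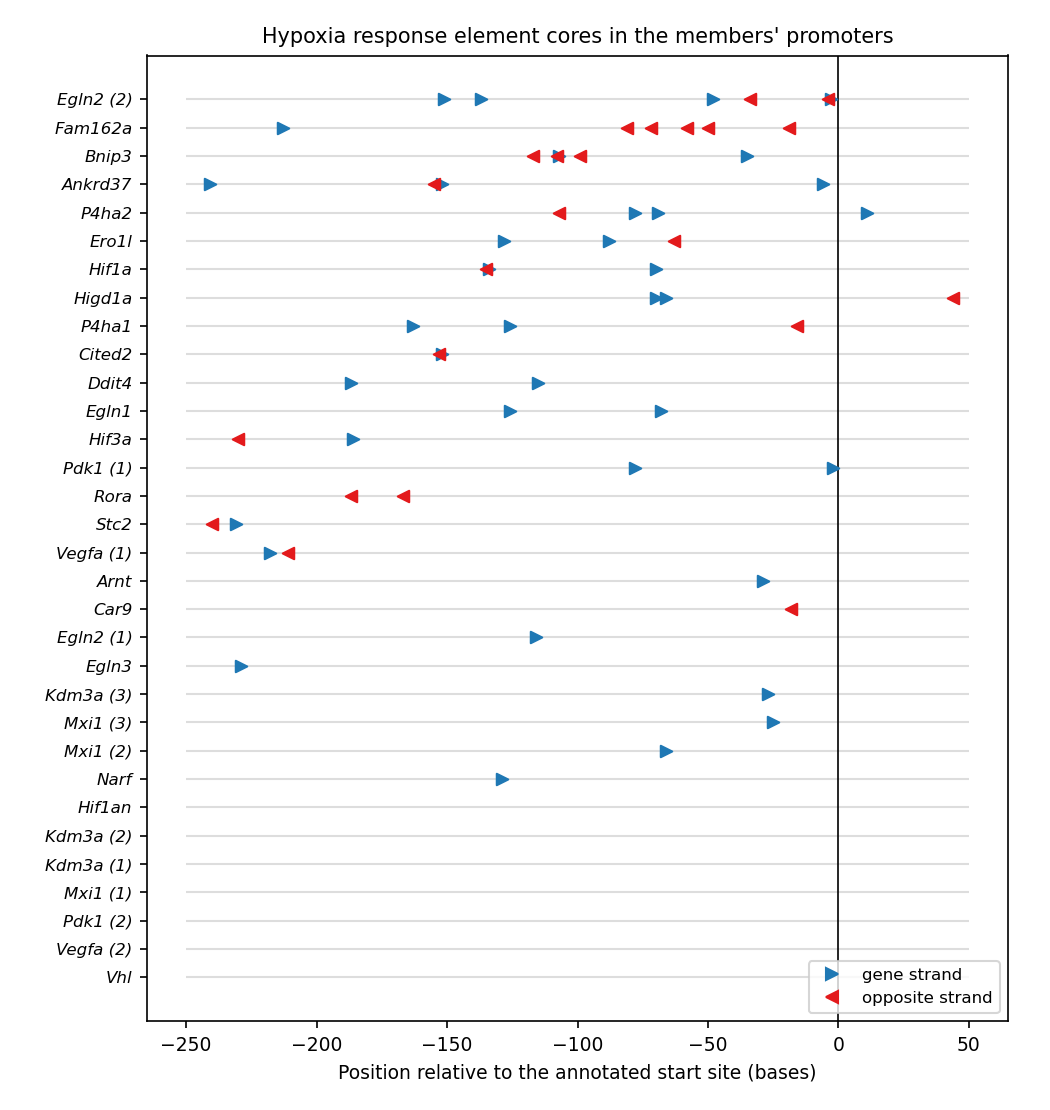
Positions of the motif matches in the promoters of the members (horizontal axis, bases from the annotated start; vertical axis, promoters; blue and red triangles are matches on the gene's and on the opposite strand). Matches are spread along the window in 25 of 32 promoters, with Bnip3 and Fam162a among the densest.

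The level of a gene is the log2 of its signal minus the array's 75th percentile, taken from the gene's brightest probe, and 1 unit is a 2-fold difference. The 75th percentile of the signal was 1093.0 to 1491.9, and 61.3% to 62.1% of 43020 spots per array were well above background. Probes printed 10 times (272 to 275 of them measured) gave the spot error. In the 4 comparisons of single arrays, the SD of a log2 difference over such spots had a median of 0.044 to 0.058. Its 95th percentile was 0.208 to 0.283. The spot error covers readings of the same labelled RNA and holds nothing of how tissues vary. All 12 skeletal muscle markers examined were well above background on every array, as were 9 of 10 fibroblast markers. Leukocytes are given as the source of RNA in the labels' text on labelling, and 5 to 6 of 10 leukocyte markers were well above background per array, among them Itgam at levels of 2.52 to 2.93, while the pan-leukocyte marker Ptprc, Laptm5 and Tyrobp were so on none. The leukocyte markers summed to linear levels of 8.72 to 10.6, most of it from Itgam on every array.

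**Figure D2:**
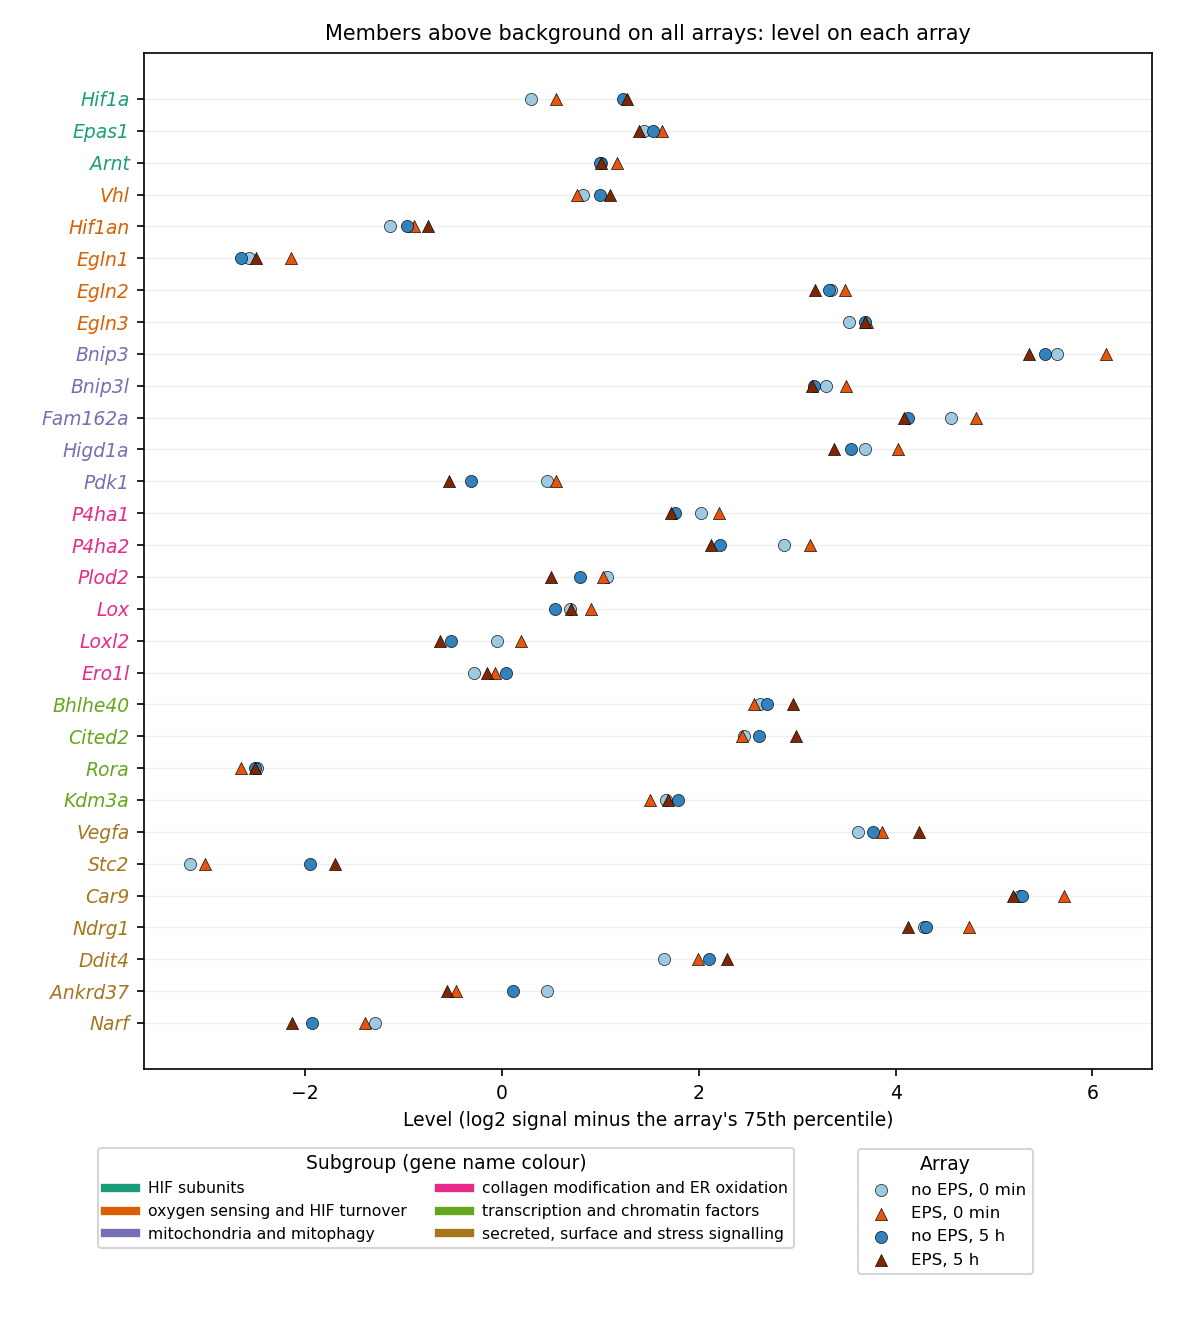
Level of each measured member (horizontal axis, log2 signal minus the array's 75th percentile) on the 4 arrays; rows are genes, colours of the names are the subgroups, circles are arrays without EPS and triangles arrays with EPS. In Bnip3, Car9 and Ndrg1 the triangle of EPS at 0 min lies to the right of the other 3 arrays, and in Ankrd37 both triangles lie to the left of both circles.

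Right after EPS, most members stood slightly higher in stimulated than in unstimulated muscle, with Bnip3, Ndrg1, Car9 and Egln1 the highest and Ankrd37 the one clear exception downward. The median difference of the 30 members was 0.20 on the log2 scale (range -0.93 to 0.50), beside 0.02 for all 18553 genes measured, and 22 members lay above 0 (73.3%, beside 54.5% of all genes). None of the 30 reached 2-fold, which 1.33% of all genes did. At 1.5-fold, 0 members were higher (2.01% of all genes) and 1 was lower (3.34% of all genes). The members' differences at 0 min were therefore small shifts, and no share of them past a fold stood above that of the array as a whole.

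Bnip3 encodes a mitophagy receptor of the outer mitochondrial membrane. Its level was 5.64 without and 6.14 with EPS at 0 min, and 5.52 without and 5.36 with EPS at 5 h. EPS at 0 min was the highest of the 4 arrays, by 0.50 or 1.41-fold over its control, while at 5 h the stimulated array was the lower by 0.16. The probe lies at chr7:146082760-146082819 (build mm9), and the other 2 Bnip3 probes differed by 0.21 and 0.28 at 0 min, so the size but not the direction depended on the probe; the mean of the 3 gave 0.33. Bnip3l, its close relative in mitophagy, had levels of 3.29 and 3.50 at 0 min and of 3.17 and 3.15 at 5 h, a difference of 0.22 at 0 min and -0.02 at 5 h.

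Higd1a, a small protein of the inner mitochondrial membrane that acts on the respiratory chain, followed the same order over the arrays. It had levels of 3.69 and 4.02 without and with EPS at 0 min (0.33), and of 3.55 and 3.37 at 5 h (-0.18). Pdk1 encodes a kinase that restrains the oxidation of pyruvate in mitochondria. Its level differed by 0.09 at 0 min (0.46 and 0.55) and by -0.23 at 5 h (-0.31 and -0.54). All 5 mitochondrial members were above 0 at 0 min (median 0.26) and below 0 at 5 h (median -0.16). Of all genes 54.5% and 43.4% lay above 0 at these times. At 5 h the values of Bnip3l and Fam162a were within 0.04 of 0, and Bnip3l came to 0.00 with normexp background correction and Fam162a to 0.01 after centring within twentieths of level. With that centring Bnip3 came to -0.03 at 5 h.

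Fam162a, which encodes a mitochondrial protein linked to hypoxic cell death, had a probe printed 10 times on each array (chr16:36044032-36044091, build mm9), and so its spot error could be read directly. Its level was 4.56 ± 0.05 (SD, n = 9 spots, after 1 outlier spot was left out) without EPS and 4.82 ± 0.08 (SD, n = 10 spots) with EPS at 0 min. At 5 h it was 4.13 ± 0.17 without and 4.09 ± 0.08 with EPS (SD, n = 10 spots each). Paired by position, the spots differed by 0.28 ± 0.03 at 0 min (SD, n = 9 spots), with every pair between 0.24 and 0.34, and by -0.04 ± 0.18 at 5 h (SD, n = 10 spots). The difference at 0 min was larger than the spread between spots and the one at 5 h was not.

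**Figure D3:**
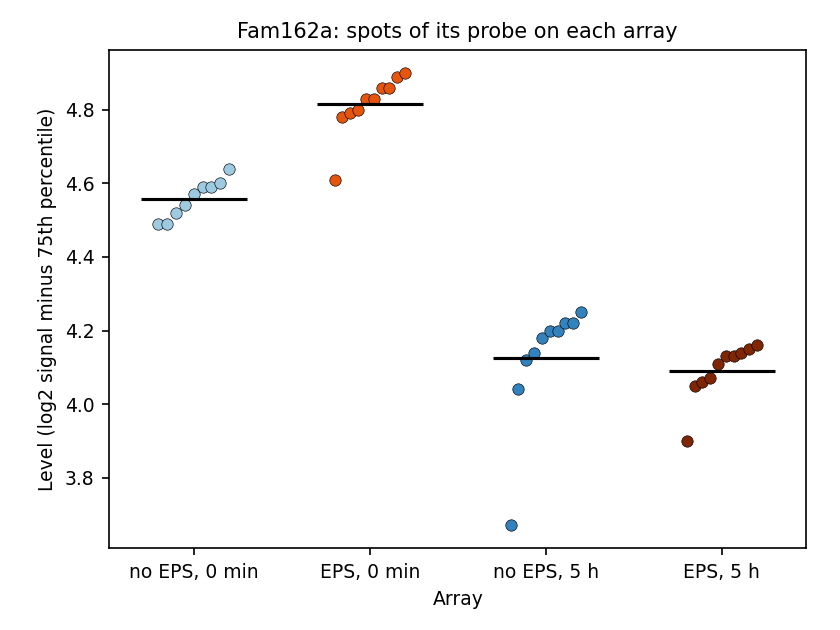
Level of each spot of the Fam162a probe (vertical axis, log2 signal minus the array's 75th percentile) on the 4 arrays (horizontal axis), with the mean as a line. Spots of 1 array are readings of 1 RNA sample; the mean is 4.56 without and 4.82 with EPS at 0 min, and the arrays at 5 h lie lower, at 4.13 and 4.09.

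Car9, a cell-surface carbonic anhydrase that handles acid, had levels of 5.26 and 5.71 without and with EPS at 0 min and of 5.28 and 5.19 at 5 h. EPS at 0 min thus stood apart by 0.45 (1.36-fold), and the other 3 arrays lay within 0.09 of each other. Ndrg1, a stress-responsive gene of cell differentiation, had levels of 4.29, 4.75, 4.31 and 4.13 for no EPS and EPS at 0 min and no EPS and EPS at 5 h. Its differences were 0.46 (1.38-fold) at 0 min and -0.18 at 5 h.

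Bright genes as a whole leaned the same way. Genes with a mean level of 4 or more had a median difference of 0.12 at 0 min (n = 1559, 90th percentile 0.27), and the 4 members there, Bnip3, Car9, Ndrg1 and Fam162a, had 0.45. After centring within twentieths of level, a setting added after the data were seen, the values at 0 min were 0.36 for Bnip3, 0.31 for Car9, 0.38 for Ndrg1 and 0.17 for Fam162a. The summed linear level of the 12 muscle markers was also highest with EPS at 0 min, at 776.0, against 699.4 without, and then 643.9 without and 620.2 with EPS at 5 h. The 10 fibroblast markers summed to 413.0, 454.6, 381.2 and 336.0 for no EPS and EPS at 0 min and no EPS and EPS at 5 h. Bright genes weigh most in such sums. At 0 min the 9 measured fibroblast markers had a median difference of -0.01, with 4 above 0 and 5 below. The 12 muscle markers had a median of 0.14, with 10 above 0 and 2 below. The part of these marker shifts in the members' values was not tested, and in a bulk tissue fewer cells of a type and less RNA per cell cannot be told apart.

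Among the HIF subunits, Hif1a, the alpha subunit best known for acute hypoxia, had levels of 0.30 and 0.55 without and with EPS at 0 min and of 1.23 and 1.27 at 5 h. EPS made a difference of 0.25 at 0 min and 0.04 at 5 h, both smaller than the step between the times. Epas1, the second alpha subunit, had levels of 1.44 and 1.63 at 0 min (0.19) and of 1.54 and 1.39 at 5 h (-0.15). Another Epas1 probe gave 0.35 and 0.06, so the direction at 5 h differed between probes. Arnt, the shared beta subunit, differed by 0.16 at 0 min and 0.01 at 5 h, and its second probe gave -0.03 and -0.31, so its direction was not settled at either time.

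Of the oxygen sensors, Egln1, the main prolyl hydroxylase, differed most at 0 min. Its levels were -2.57 without and -2.14 with EPS at 0 min (0.43, 1.35-fold), and -2.65 and -2.50 at 5 h (0.15). With normexp background correction these were 0.31 and 0.01. Egln3, a prolyl hydroxylase that is itself a HIF target, had levels of 3.53, 3.71, 3.69 and 3.69 in the order no EPS and EPS at 0 min, then no EPS and EPS at 5 h. Egln2, the third of these hydroxylases, had 3.34, 3.49, 3.32 and 3.18 in that order, and its second probe differed by 0.03 at 0 min and -0.13 at 5 h. Hif1an, the asparaginyl hydroxylase, was higher with EPS at both times, by 0.25 (-1.14 and -0.89) and 0.21 (-0.96 and -0.75). Vhl, which targets HIF for destruction, differed by -0.06 at 0 min and 0.10 at 5 h.

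Ankrd37, a small ankyrin repeat gene known as a direct HIF target, lay below its control at both times, farther than any other member. Its signal was 1874.1 without and 790.4 with EPS at 0 min, and 1384.5 without and 1014.7 with EPS at 5 h. In level these were 0.46 and -0.47, then 0.11 and -0.56, so that both stimulated arrays lay below both controls. The stimulated array was lower by 1.90-fold at 0 min (log2 -0.93, rank 181 from the lowest of 18553 genes) and by 1.59-fold at 5 h (log2 -0.67, rank 378 from the lowest of 18507). These differences come from 1 probe (chr8:47082404-47082463, build mm9) and share no array. Among the 18072 genes measured on all 4 arrays, 126 (0.697%) were lower by 1.5-fold or more at both times, and Ankrd37 was the 1 member of 30 among them.

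At 5 h the members were spread about 0, with Vegfa (0.47) and Cited2 (0.38) the highest, followed by Bhlhe40 (0.27) and Stc2 (0.26). The median of the 30 was -0.04 (range -0.67 to 0.47), beside -0.035 for all 18507 genes, and 12 lay above 0 (40.0%, beside 43.4%). None reached 2-fold (1.22% of all genes). At 1.5-fold, 0 were higher (2.06% of all genes) and 1, Ankrd37, was lower (2.96% of all genes). The set as a whole therefore did not stand apart from the array at 5 h.

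Vegfa, the growth factor of blood vessels, had signals of 16798.1 and 15901.0 without and with EPS at 0 min and of 17432.1 and 28218.3 at 5 h. In level, EPS at 5 h was the highest array (4.24), above 3.77 for its control and 3.62 and 3.86 at 0 min. The difference was 0.24 at 0 min and 0.47 (1.39-fold) at 5 h. The second Vegfa probe gave 0.19 and 0.47, so both probes placed the larger difference at 5 h.

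Cited2, a HIF target that competes with HIF for its coactivators, had levels of 2.46, 2.44, 2.61 and 2.99 for no EPS and EPS at 0 min and no EPS and EPS at 5 h. EPS at 5 h was again the highest array, by 0.38 over its control (0.51 in its second probe), whereas the difference at 0 min was -0.03. Bhlhe40, a transcriptional repressor of the clock and of hypoxia responses, had 2.62, 2.56, 2.69 and 2.96 in the same order, with differences of -0.07 and 0.27. Kdm3a, a histone demethylase, had 1.67, 1.51, 1.79 and 1.69, and Rora, a nuclear receptor of the clock, had -2.49, -2.65, -2.51 and -2.51. The 4 measured transcription and chromatin factors thus lay below 0 at 0 min (median -0.11), where 54.5% of all genes lay above 0. Each of the 4 had a larger value at 5 h than at 0 min. At 0 min Cited2 and Bhlhe40 lay within 2 median spot standard deviations (0.116) of 0. The gain from 0 min to 5 h was only 0.07 for Kdm3a and 0.15 for Rora, the latter 0.03 with normexp background correction.

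**Figure D4:**
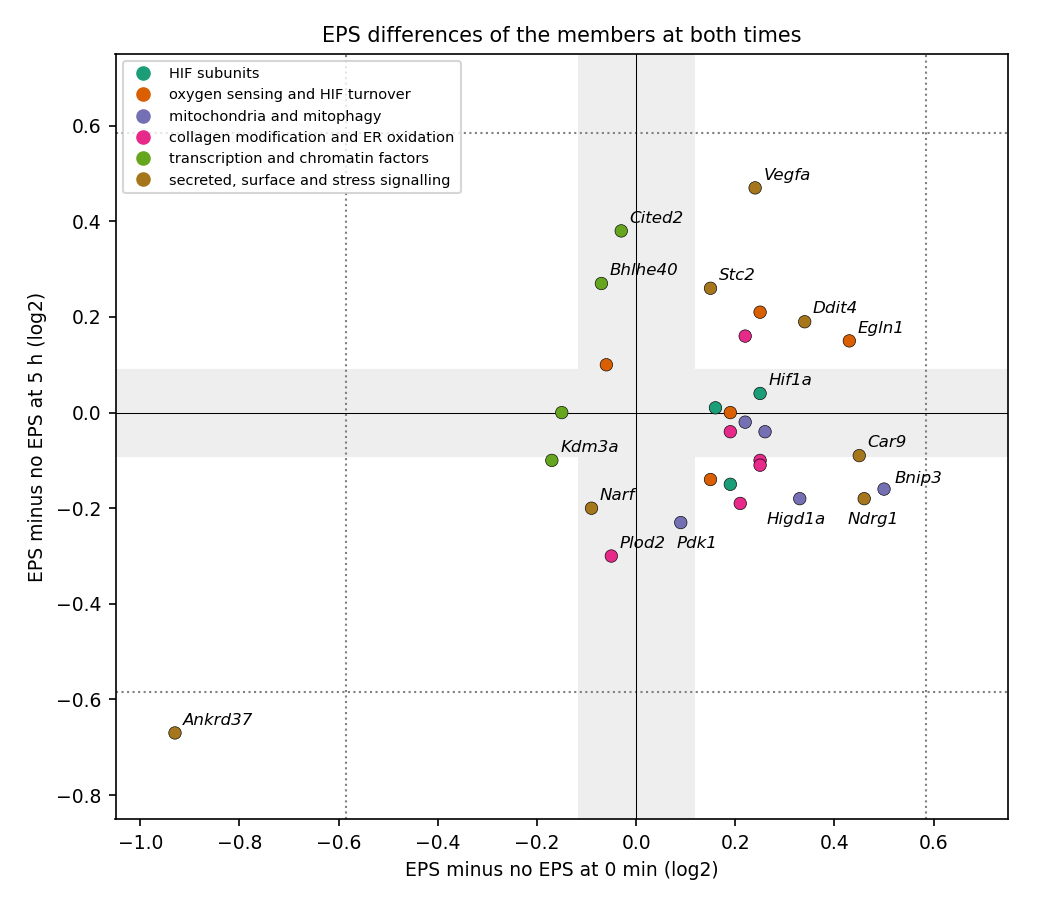
Difference in level between EPS and no EPS for each measured member at 0 min (horizontal axis, log2) and at 5 h (vertical axis, log2), coloured by subgroup. Grey bands span 2 median spot standard deviations and dotted lines mark 1.5-fold. Bnip3, Ndrg1 and Higd1a lie to the right and below 0, Vegfa and Cited2 above 0, and Ankrd37 alone past 1.5-fold at both times.

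The enzymes of collagen modification sat above 0 at 0 min in 5 of 6 cases (median 0.21) and above 0 at 5 h in 1 of 6 (median -0.10). Of all genes 54.5% and 43.4% lay above 0 at these times. P4ha1, a catalytic subunit of collagen prolyl hydroxylase, had levels of 2.02, 2.21, 1.76 and 1.72 for no EPS and EPS at 0 min and no EPS and EPS at 5 h. P4ha2, its alternative subunit, had 2.87, 3.13, 2.22 and 2.12. Both were highest with EPS at 0 min and lowest with EPS at 5 h. The difference of P4ha1 from its control at 5 h was -0.04, within the median spot SD of 0.045. Plod2, the lysyl hydroxylase of collagen, had 1.07, 1.03, 0.79 and 0.50. Lox, which cross-links collagen, had 0.69, 0.91, 0.54 and 0.70, the one enzyme of this group that was above its control at both times. Loxl2, a related oxidase, had -0.05, 0.19, -0.52 and -0.63. Its difference of 0.25 at 0 min was 0.04 in the mean of its 4 probes, of which 1 maps in the array files to chromosome 2 while the other 3 map to chromosome 14. The chromosome 2 probe was dim (level -5.01 without EPS at 0 min) and gave -0.26 at 0 min. The remaining chromosome 14 probes gave 0.10 and 0.06. Ero1l (Ero1a in RefSeq), the oxidase that drives disulfide formation in the endoplasmic reticulum, had -0.28, -0.07, 0.04 and -0.15, with differences of 0.21 and -0.19.

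At 5 h compared with 0 min, Stc2 and Hif1a stood higher and Pdk1, P4ha2 and Narf lower, both in the unstimulated and in the stimulated tissue. These comparisons use the same 4 arrays as the EPS comparisons and share arrays with them, though not with each other. Without EPS, the median of the 30 members was -0.01 (beside -0.02 for 18448 genes). There 1 member was higher by 2-fold or more (1.75% of all genes) and 0 were lower (2.97%). At 1.5-fold, 2 were higher (6.62%) and 3 lower (9.38%), close to the shares of the array. After EPS, the median was -0.23 (beside -0.08 for 18436 genes), with 1 member higher (2.40%) and 2 lower (3.65%) at 2-fold. At 1.5-fold, 2 were higher (7.91%) and 8 lower (12.5%), and the lower 8 were 26.7% of the members.

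Stc2, a secreted glycoprotein of the stress response, had signals of 150.9 and 134.3 without and with EPS at 0 min and of 331.0 and 461.8 at 5 h. Both arrays at 5 h lay above both at 0 min, by 1.22 (2.33-fold) without EPS and 1.33 (2.52-fold) after it. The values were just short of 2-fold with normexp background correction, at 0.96 and 0.97. Hif1a had signals of 1677.7 and 1595.7 at 0 min and of 3000.7 and 3601.1 at 5 h. It was higher at 5 h by 0.93 (1.90-fold) without EPS and by 0.73 (1.65-fold) after it, the largest upward difference among the members after Stc2 in both.

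Pdk1 had signals of 1874.4 and 1605.5 without and with EPS at 0 min and of 1029.5 and 1023.4 at 5 h. It was lower at 5 h by 1.71-fold without EPS (log2 -0.77) and by 2.14-fold after it (log2 -1.10), the lowest value of the set in both. P4ha2 was lower by 1.57-fold (-0.65) without EPS and by 2.01-fold (-1.01) after it, and with normexp background correction the second value was -0.96, short of 2-fold. Narf, which encodes a protein that binds prenylated prelamin A, had levels of -1.29, -1.39, -1.93 and -2.13 for no EPS and EPS at 0 min and no EPS and EPS at 5 h, and was lower by 0.63 and 0.74. Of the 3 members lower by 1.5-fold without EPS, all 3 were among the 8 lower after EPS (37.5% of the 8), and over all genes 1129 did so, 69.2% of those lower without EPS and 50.3% of those lower after it.

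The other 5 of the 8 were Bnip3 (-0.78), Loxl2 (-0.82), Fam162a (-0.73), Higd1a (-0.64) and Ndrg1 (-0.63). Without EPS the same 5 had -0.12, -0.47, -0.43, -0.14 and 0.02 in that order. For Fam162a the paired spots gave -0.43 ± 0.19 (SD, n = 9 spots) without and -0.73 ± 0.04 (SD, n = 10 spots) after EPS. Car9 showed the same gap between the 2 time courses, with 0.02 without EPS and -0.52 after it. All genes of mean level 4 or more had a median of -0.17 after EPS, where the 4 bright members had -0.68. With centring within twentieths of level the values after EPS were -0.57 for Bnip3 and -0.55 for Ndrg1, both short of 1.5-fold. The fibroblast markers had a median of -0.13 without and -0.57 after EPS. Ddit4, an inhibitor of the growth kinase mTORC1, was higher at 5 h, with levels of 1.65 and 1.99 at 0 min and of 2.10 and 2.29 at 5 h. Its rise was 0.45 without EPS and 0.30 after it, so its value over time was also the lower after EPS.

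**Figure D5:**
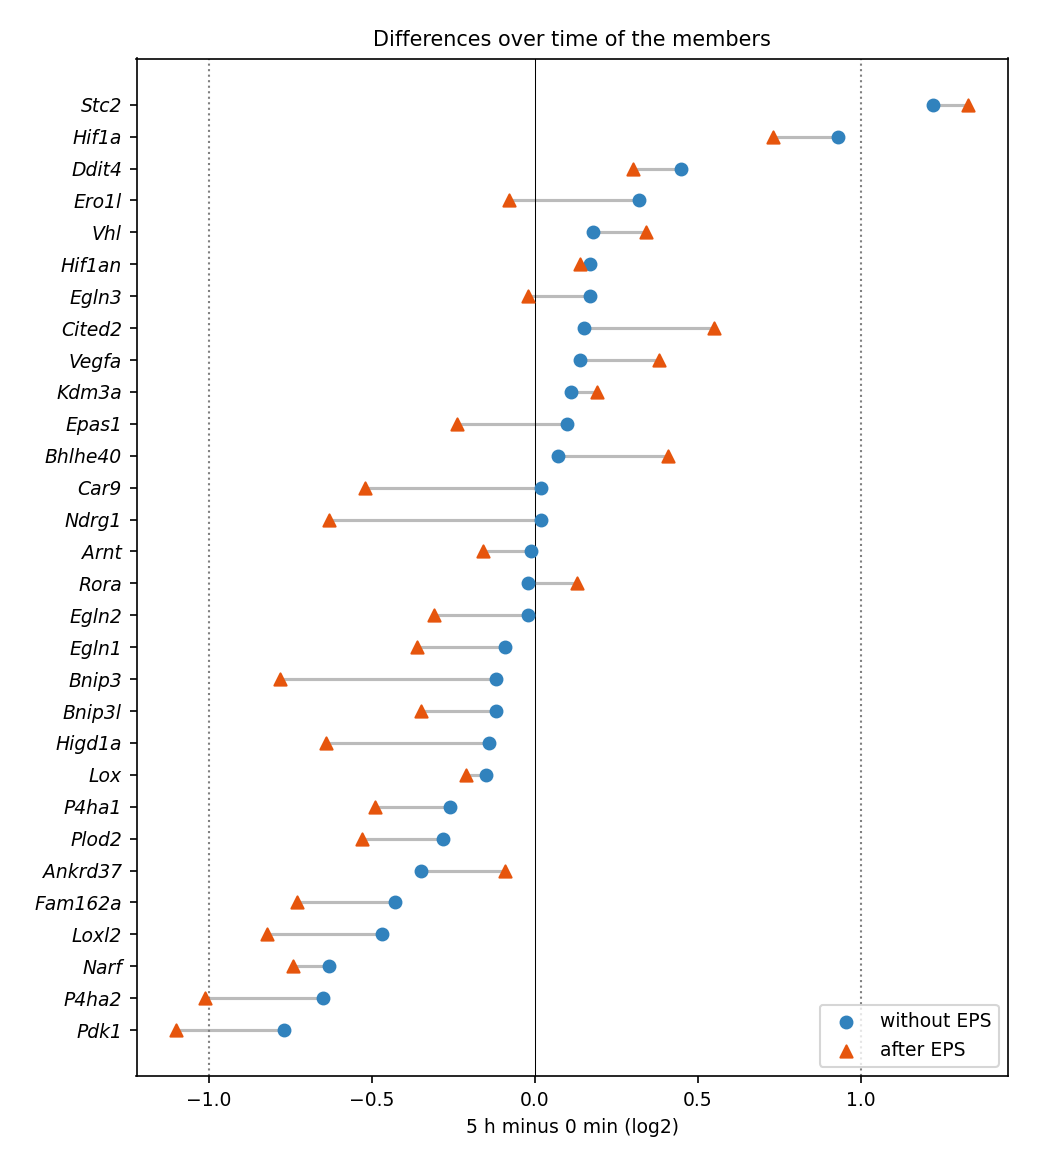
Difference in level between 5 h and 0 min for each measured member (horizontal axis, log2), with circles for the arrays without EPS and triangles for those with EPS; dotted lines mark 2-fold. Stc2 and Hif1a lie at the high end and Pdk1 and P4ha2 at the low end on both, while Bnip3, Car9 and Ndrg1 lie near 0 without EPS and at -0.78, -0.52 and -0.63 after it.

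The difference between the EPS effects (5 h minus 0 min) gathered these patterns. Its median was -0.22 over the members and -0.045 over 18072 genes, and 8 members lay above 0 and 22 below, beside 41.8% of all genes above 0. None reached 2-fold (1.99% of all genes), and at 1.5-fold 0 were higher (3.36%) and 2, Bnip3 (-0.66) and Ndrg1 (-0.64), were lower (4.01%). All genes of mean level 4 or more had a median of -0.22 here (n = 1559), and the 4 members there had -0.59. With centring within twentieths of level Bnip3 was -0.39 and Ndrg1 -0.51, both short of 1.5-fold. The largest positive values were Cited2 (0.40) and Bhlhe40 (0.34). Members above their control at 0 min by more than 2 median spot standard deviations (0.116) and below it at 5 h by more than 2 (0.09) numbered 8 of 30 (26.7%), beside 8.73% of all genes, and the reverse order was met by 0 members and 4.02% of genes. In the mean of their probes Epas1, Egln2 and Loxl2 no longer met these bounds. The Loxl2 mean takes in its chromosome 2 probe, at -0.26 for 0 min, while its chromosome 14 probes gave 0.25, 0.10 and 0.06. After centring within twentieths of level the first count was 6 of 30 beside 5.87% of genes, and the reverse was 1 beside 4.99%. Bnip3, at -0.03 for 5 h, and Egln2, at 0.09 for 0 min, no longer met the bounds there. The bounds rest on the median spot SD, while its 95th percentile was 0.267 at 0 min and 0.26 at 5 h. At 5 h all 8 members lay within 0.26 of 0, each read from 1 spot per array. At 0 min only Bnip3, Ndrg1 and Higd1a of the 8 lay past 0.267.

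Across the 4 arrays, 4 of 30 members spanned 2-fold or more (13.3%, beside 10.6% of 18072 genes), namely Stc2 (1.48), Pdk1 (1.10), Ankrd37 (1.02) and P4ha2 (1.01). The median span was 0.54 in the members and 0.44 in all genes.

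Other genes of the pathway came from lists set with earlier results of these data known. All 17 glycolytic HIF targets were measured, with a median of 0.17 at 0 min and -0.20 at 5 h. Of them 13 and then 2 lay above 0 (76.5% and 11.8%, beside 54.5% and 43.4% of all genes). All genes of mean level 4 or more had medians of 0.12 and -0.10, and several of these targets were that bright. No glycolytic target was past 2-fold at either time. At 1.5-fold 1 was lower at each, Slc2a3, a glucose transporter, with -0.68 and -0.99. The other HIF targets (17 of 18 measured at 0 min and 16 at 5 h) had medians of 0.13 and 0.08. At 5 h 1 was higher by 2-fold, Igfbp3, a binding protein of insulin-like growth factors (1.18), and 2 were lower, the vasoactive peptides Apln (-1.32) and Adm (-1.09). At 5 h these genes were thus farther from 0 than any member. The 16 partners of HIF turnover and transcription had medians of 0.09 and -0.17, none past 2-fold, and at 1.5-fold 1 was higher at 0 min, Siah2 (0.59), a ubiquitin ligase that acts on prolyl hydroxylases.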

How the data were processed

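Total RNA of the 4 engineered muscle samples was labelled with Cy3 and hybridised to single-colour Agilent arrays, 1 per group, per the labels' protocols. The authors deposited intensities of each spot, background-subtracted and detrended by Agilent Feature Extraction 10.7.3.1, per the file headers; probe positions in these files are on build mm9. The deposited value table held the same intensities for all 44397 spots, linear and uncentred, with column medians of 57.6 to 75.2. No spot was saturated, and 112 to 141 outlier spots per array were left out. The level is the log2 of the deposited intensity minus the array's 75th percentile; spots of a probe were averaged, and each gene took its brightest probe over the 4 arrays. Gene names are those of the array files, and all 32 members matched RefSeq by accession.

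A gene entered a comparison if it was well above background on each array compared. With 1 array per group no test was run and no p-value was computed, and the number of arrays limits the precision; differences were read against 2-fold and 1.5-fold over all genes. Every member is named; each pathway list is given by its counts and median and by at most 3 genes of the largest difference. Some results on these and the marker lists are not reported here. The members and lists were chosen with earlier results of these data known. Alternatives were normexp background correction (offset 50; limma 3.58.1, R 4.3.3), 3 other filters on dim probes, centring on the median, quantile normalization, the mean of probes and 1.5-fold, plus centring within twentieths of level, added after the data were seen. Scripts were tested on simulated data (Python 3.11.15).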

Additional observations from a re-analysis of the deposited data

Results flagged for a closer look

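In 8 members the stimulated array lay above its control at 0 min and below it at 5 h, each by more than 2 median spot standard deviations. The change in the EPS difference, 5 h minus 0 min on the log2 scale, was -0.66 for Bnip3, -0.64 for Ndrg1, -0.51 for Higd1a, -0.40 for Ero1l, -0.36 for P4ha2, -0.35 for Epas1, -0.35 for Loxl2 and -0.29 for Egln2. With 1 array per group the difference between the times was not tested. In the mean of their probes the values of 3 of these lay inside that bound: Loxl2 at 0 min (0.04), Egln2 at 0 min (0.09) and Epas1 at 5 h (-0.05). The Loxl2 mean takes in the probe that maps to chromosome 2 (-0.26 at 0 min). After centring within twentieths of level, Bnip3 at 5 h (-0.03) and Egln2 at 0 min (0.09) lay inside the bound. The bound rests on the median spot SD, and all 8 differences at 5 h were smaller in size than its 95th percentile of 0.26.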

How the results depend on the processing

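No paired analysis was possible because the groups share a single replicate number, with 1 array each; an additive model of EPS and time was not fitted. Over the alternatives run, the median of the members lay between 0.15 and 0.22 for EPS at 0 min, between -0.06 and 0.00 for EPS at 5 h, between -0.25 and -0.23 over time after EPS, and between -0.22 and -0.16 for the difference of EPS effects. Of 150 member differences, the 80 of at least 0.2 in size kept their sign under the alternatives run, while 15 of the 70 smaller ones did not, 7 of them EPS differences at 5 h. The 3 filters on dim probes could not change the value of a measured member, nor the mean of probes that of a member with 1 probe, so this rests mainly on normexp, quantile, median and level centring. The number of members past 2-fold was 0 for EPS at 0 min, 0 for EPS at 5 h, 1 over time without EPS, 3 over time after EPS and 0 for the difference of EPS effects. With a 1.5-fold rule these were 1, 1, 5, 10 and 2. With normexp they were 0 over time without EPS and 1 over time after EPS, and with no filter on dim probes the count was 1 for EPS at 0 min. Over all genes, the counts past 2-fold for EPS at 0 min, EPS at 5 h, time without EPS, time after EPS and the difference were 247, 225, 869, 1116 and 360. In that order they were 70, 74, 412, 597 and 106 with normexp, 1022, 1026, 1769, 2171 and 1834 for genes above background on at least 1 array, and 2238, 2526, 3106, 3930 and 3967 with no filter. Over time after EPS, 443 genes were higher and 673 lower, but 530 and 517 after quantile normalization and 568 and 504 after centring within twentieths of level. The split for EPS at 0 min was 100 higher and 147 lower, and 41 and 29 with normexp; for the difference of EPS effects it was 181 and 179, and 34 and 72 with normexp. The cause of these shifts was not tested. With 1 array per group the data give no spread between tissues.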
